A study of Mus musculus with 6 samples.

Results

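Short-chain fatty acid transport and sensing in the colon epithelium was followed through 8 genes chosen by symbol, and all 8 were among the 24346 gene entries of the series. They are the monocarboxylate transporter genes Slc16a1, Slc16a3, Slc16a5 and Slc16a9, the sodium-coupled transporter gene Slc5a8, the transporter chaperone gene Bsg, and the receptor genes Ffar2 and Ffar3. RNA came from epithelial cells of the distal, middle and proximal colon. The mice were untreated and wild-type, of the inbred laboratory strain C57BL/6J. Each region had 1 female and 1 male library, so n = 2 per region and 6 libraries in all. The labels used here do not give the age of the mice, how many mice a library holds, or whether the 3 libraries of a sex share mice. The p-values below therefore reflect spread among libraries, some of which may be technical.

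Bacteria of the large intestine ferment fibre to acetate, propionate and butyrate. Colonocytes take these acids up partly through proton-coupled carriers of the SLC16 family, of which MCT1 and MCT4 need the membrane glycoprotein basigin to reach the cell surface, and partly through the sodium-coupled carrier SMCT1 on the luminal side. Butyrate is a main fuel of colonocytes, and the acids are also sensed by the G-protein-coupled receptors FFAR2 and FFAR3, which in the gut are best known from enteroendocrine cells and, for FFAR2, from leukocytes. In a bulk library, fewer cells of a type and less RNA per cell cannot be told apart.

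Expression was given as FPKM, the number of fragments scaled for transcript length and for the depth of the library. How the authors scaled the libraries to each other is not given in the sources used here. Total FPKM was 546269 to 612818 per library, 11170 to 11473 entries reached an FPKM of 1, and a depth of 7790000 to 9900000 fragments was estimated from the steps between low values. The 8 epithelial markers summed to 9771 to 10076 FPKM in distal, 8770 to 10209 FPKM in middle and 8820 to 10387 FPKM in proximal libraries. Epithelial cell markers were therefore abundant in every region. Most of the sum was Krt8 and Krt19, so it does not show that each marker was even. Krt20 had 247 and 388 FPKM in the female and male distal and 851 and 694 FPKM in the proximal libraries. Its log2 difference between distal and proximal colon was -1.31 (limma adjusted p = 0.062). Over the 8 markers, 5 were fitted higher and 3 lower in the distal colon. The 8 T cell markers in the files summed to 2.76 to 3.10 FPKM in distal, 3.79 to 7.02 FPKM in middle and 13.9 to 36.3 FPKM in proximal libraries. The 6 fibroblast markers summed to at most 3.33 FPKM in any library, the 6 smooth muscle markers to at most 7.19 FPKM, and the B and plasma cell markers to at most 1.32 FPKM. Erythroid markers, 4 in the files, summed to 35.3 to 131 FPKM in distal and 38.8 to 137 FPKM in proximal libraries. Middle libraries had 95.6 to 117 FPKM. Most of that was Hba-a1, at 34.9 and 129 FPKM in female and male distal and 38.5 and 135 FPKM in proximal libraries. The part of red blood cells in the level of the 8 genes was not tested.

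Differences were tested with limma on log2(FPKM + 1), with region and sex in the model, over the 11815 entries that reached 1 FPKM in 2 or more libraries, and p-values were adjusted over all of them. Of the 8 genes, 7 passed this filter and Ffar3 did not. Between distal and proximal colon 5 of the 7 tested genes passed the adjusted threshold of 0.05, compared with 14.1% of all genes tested. Slc5a8 and Slc16a1 rose (6.47% of all genes tested rose), and Slc16a9, Ffar2 and Slc16a5 fell (7.64% of all genes tested fell). Bsg and Slc16a3 did not pass, and at an unadjusted p under 0.05 limma called 6 of 7, against 29.2% of all genes tested. The 8 genes and the lists below were chosen with earlier results of these data known. Shares set beside those of all genes are therefore a description and no independent support. All these differences are on the log2(FPKM + 1) scale, which understates the change of genes near or below 1 FPKM.

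**Figure D1:**
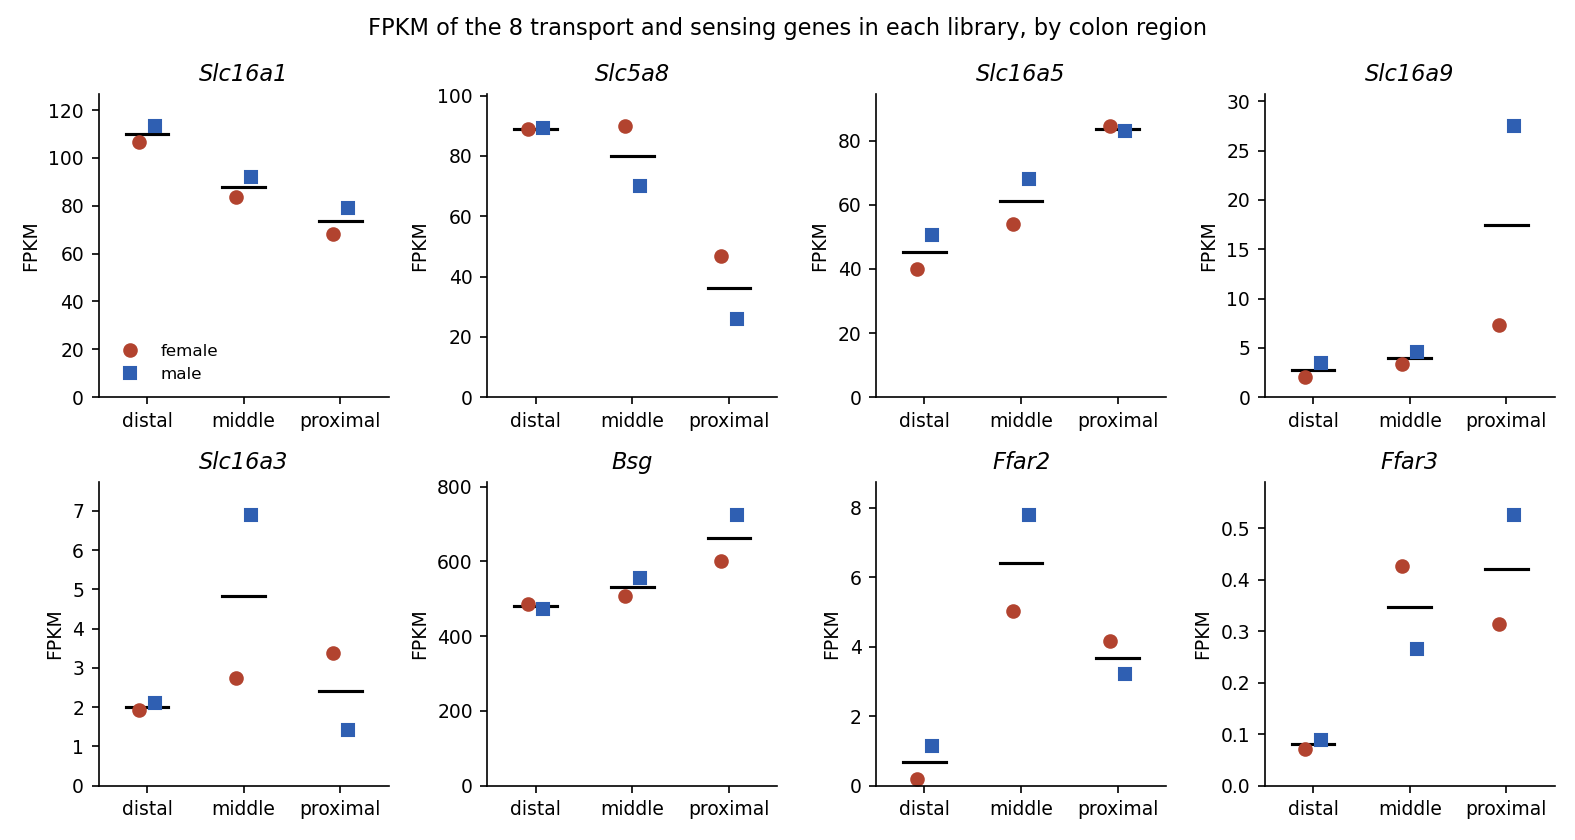
FPKM (y axis, linear, from 0, a separate scale for each gene) of the 8 transport and sensing genes in the distal, middle and proximal colon. Circles are female and squares male libraries, and the line is the mean of the 2 libraries of a region; Slc16a1 stood highest and Slc16a5 and Bsg lowest in the distal colon, whereas Ffar2 was highest in the middle colon, at 5.04 and 7.81 FPKM.

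Slc16a1 (Ensembl ENSMUSG00000032902, chromosome 3, 104638668 to 104658462, plus strand, mm10) encodes MCT1, the proton-coupled carrier of lactate, pyruvate, ketone bodies and short-chain fatty acids. It had 107 FPKM in the female and 113 FPKM in the male distal library, 83.7 and 92.1 FPKM in the female and male middle libraries, and 68.3 and 79.1 FPKM in the female and male proximal libraries. Distal libraries were above middle libraries and middle above proximal libraries, with no overlap between regions. The regional means were 110.0 ± 4.70 FPKM in distal, 87.9 ± 5.98 FPKM in middle and 73.7 ± 7.64 FPKM in proximal colon (SD, n = 2 each). The distal level was 1.49 times the proximal one, a log2 difference of 0.58 (with SE 0.10 and limma adjusted p = 0.018), and it was higher in both sexes. The call was not made without the female distal library (limma adjusted p = 0.15) or without the male distal library (0.15), although the log2 difference then was 0.53 and 0.62.

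Slc5a8 (ENSMUSG00000020062, chromosome 10, 88885992 to 88929515, plus strand) encodes SMCT1, which couples uptake of butyrate, propionate, lactate and pyruvate to sodium. It had 88.8 and 89.2 FPKM in the female and male distal libraries, 89.9 and 70.2 FPKM in the female and male middle libraries, and 46.8 and 25.8 FPKM in the female and male proximal libraries. Both distal and both middle libraries lay above both proximal libraries, while distal and middle values overlapped. Slc5a8 averaged 89.0 ± 0.279 FPKM in distal, 80.0 ± 14.0 FPKM in middle and 36.3 ± 14.9 FPKM in proximal colon (SD, n = 2 each). The distal mean was 2.45 times the proximal mean, with a fitted log2 difference of 1.33 (with SE 0.20 and limma adjusted p = 0.014). Without the male distal library the log2 difference was 1.03 and not called (limma adjusted p = 0.085). Middle against proximal colon gave a log2 difference of 1.17 (with SE 0.20 and limma adjusted p = 0.056), which lay just outside the threshold and passed with a filter of 5 FPKM (0.049), without the female distal (0.038) or male distal library (0.037), or without the female proximal library (0.0043). Distal against middle colon gave 0.16 (SE 0.20, limma adjusted p = 0.81), and -0.14 without the male distal library.

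Slc16a5 (ENSMUSG00000045775, chromosome 11, 115462474 to 115474398, plus strand) encodes a carrier of the same family, named MCT6 in humans, where it is known to carry drugs such as bumetanide. It had 40.1 and 50.6 FPKM in the female and male distal libraries, 54.1 and 68.0 FPKM in the female and male middle libraries, and 84.6 and 83.0 FPKM in the female and male proximal libraries. The order ran opposite to that of Slc16a1, and again no 2 regions overlapped. Slc16a5 fell in the distal colon to 45.4 ± 7.45 FPKM, against 83.8 ± 1.10 FPKM in the proximal colon (SD, n = 2 each), with a log2 difference of -0.88 (with SE 0.13 and limma adjusted p = 0.012). The middle colon lay between them, at 61.1 ± 9.81 FPKM (SD, n = 2). The distal call was not made without the female distal (limma adjusted p = 0.086) or male distal library (0.076). An antisense gene, Gm11695, overlaps Slc16a5, and the authors' treatment of strand is not given in the sources used here, so reads of the pair may be mixed.

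Slc16a9 (ENSMUSG00000037762, chromosome 10, 70245100 to 70285968, plus strand) encodes MCT9, which in humans has been linked to carnitine transport. It had 2.04 and 3.44 FPKM in the female and male distal libraries, 3.40 and 4.6 FPKM in the female and male middle libraries, and 7.35 and 27.5 FPKM in the female and male proximal libraries. The male proximal library stood far above the other libraries, and both proximal libraries lay above all others. Slc16a9 fell in the distal colon, with a log2 difference of -2.07 (with SE 0.35 and limma adjusted p = 0.019), with means of 2.74 ± 0.993 FPKM in distal and 17.4 ± 14.2 FPKM in proximal colon (SD, n = 2 each). The call was not made without a filter on low values (limma adjusted p = 0.057), with sex left out of the model (0.066), or without the female distal (0.052) or male distal library (0.13), and without the male proximal library the log2 difference was -1.41. Middle against proximal colon gave -1.64 (SE 0.35, limma adjusted p = 0.083), and passed only without the female proximal library (-2.30, limma adjusted p = 0.0021). The antisense entries Gm7097 and Gm9877 overlap the gene, with the same uncertainty about strand.

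Slc16a3 (ENSMUSG00000025161, chromosome 11, 120948480 to 120960868, plus strand) encodes MCT4, known as a lactate exporter of glycolytic cells. It had 1.94 and 2.09 FPKM in the female and male distal libraries, 2.73 and 6.91 FPKM in the female and male middle libraries, and 3.38 and 1.43 FPKM in the female and male proximal libraries. Distal values lay inside the range of the proximal ones and the male middle library was the highest. The difference between distal and proximal colon was -0.11 (SE 0.44, limma adjusted p = 0.90), and 0.60 without the female proximal library, so no direction is given. Per length, Slc16a1 was 13.3 to 55.4 times as high as Slc16a3 within a library.

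The first bases of the genes that rose, and of Slc16a9, a carrier gene that fell, are shown so that their start regions can be compared. Each window runs from 250 bases before to 50 bases after the RefSeq start on GRCm38.p6, and 6 of the 8 genes had a window. Capitals mark matches on either strand to CACGTG, the E-box read by factors such as Myc and USF, and to GGGCGG, the GC box read by Sp-family factors. The windows are chr3:104638414-104638713 for Slc16a1, chr10:88885742-88886041 for Slc5a8 and chr10:70245026-70245325 for Slc16a9, each on the plus strand.
Slc16a1: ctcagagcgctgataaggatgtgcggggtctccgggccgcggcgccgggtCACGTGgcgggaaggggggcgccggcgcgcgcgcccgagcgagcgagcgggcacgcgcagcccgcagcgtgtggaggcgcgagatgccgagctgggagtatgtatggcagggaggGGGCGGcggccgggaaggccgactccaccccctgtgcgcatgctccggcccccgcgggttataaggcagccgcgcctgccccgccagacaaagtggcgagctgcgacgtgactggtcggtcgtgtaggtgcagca
Slc5a8: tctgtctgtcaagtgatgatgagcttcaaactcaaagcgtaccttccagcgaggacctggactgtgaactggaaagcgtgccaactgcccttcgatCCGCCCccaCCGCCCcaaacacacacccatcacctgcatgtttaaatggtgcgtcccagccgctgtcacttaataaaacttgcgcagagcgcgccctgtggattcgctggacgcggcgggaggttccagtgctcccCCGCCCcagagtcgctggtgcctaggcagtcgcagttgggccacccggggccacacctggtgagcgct
Slc16a9: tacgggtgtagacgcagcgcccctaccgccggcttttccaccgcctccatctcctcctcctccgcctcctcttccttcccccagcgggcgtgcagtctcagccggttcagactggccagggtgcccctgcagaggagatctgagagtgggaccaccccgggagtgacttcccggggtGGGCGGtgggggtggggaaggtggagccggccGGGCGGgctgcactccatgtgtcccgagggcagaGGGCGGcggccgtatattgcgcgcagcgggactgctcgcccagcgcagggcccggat

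The Slc16a1 window held 42 CpG dinucleotides, 1 E-box and 1 GC box. The Slc5a8 window held 20 CpG dinucleotides and 3 GC boxes, and the Slc16a9 window 26 CpG dinucleotides and 3 GC boxes. The median over all 32851 windows of the same length was 7 CpG dinucleotides, 7.15% of them held CACGTG and 35.7% held GGGCGG. No window of these 3 held TATAAA, which 13.6% of all windows held. Marked matches do not overlap each other. In these letters the start of Slc16a1, a gene that rose distally, and that of Slc16a9, which fell, were both CpG-rich and both held a GC box.

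The 5 transporter genes were also summed, as a description of their makeup. This sum does not measure transport of short-chain fatty acids, since other cargo was named above for Slc16a5 and Slc16a9. Their summed FPKM was 239.6 and 259 in the female and male distal libraries, 234 and 242 in the female and male middle libraries, and 210.4 and 217 in the female and male proximal libraries. Slc5a8 made up 37.1% and 34.5% of that sum in the female and male distal libraries, 38.5% and 29.0% in the middle libraries, and 22.3% and 11.9% in the proximal libraries. For Slc16a5 the shares were 16.7% and 19.6% in the female and male distal libraries, 23.1% and 28.1% in the middle libraries, and 40.2% and 38.3% in the proximal libraries. Slc16a1 had 2.66 and 2.24 times the FPKM of Slc16a5 in the female and male distal libraries, against 0.808 and 0.953 times in the female and male proximal libraries. Slc16a1 was thus the higher of the pair per length in the distal colon and Slc16a5 in the proximal colon.

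**Figure D2:**
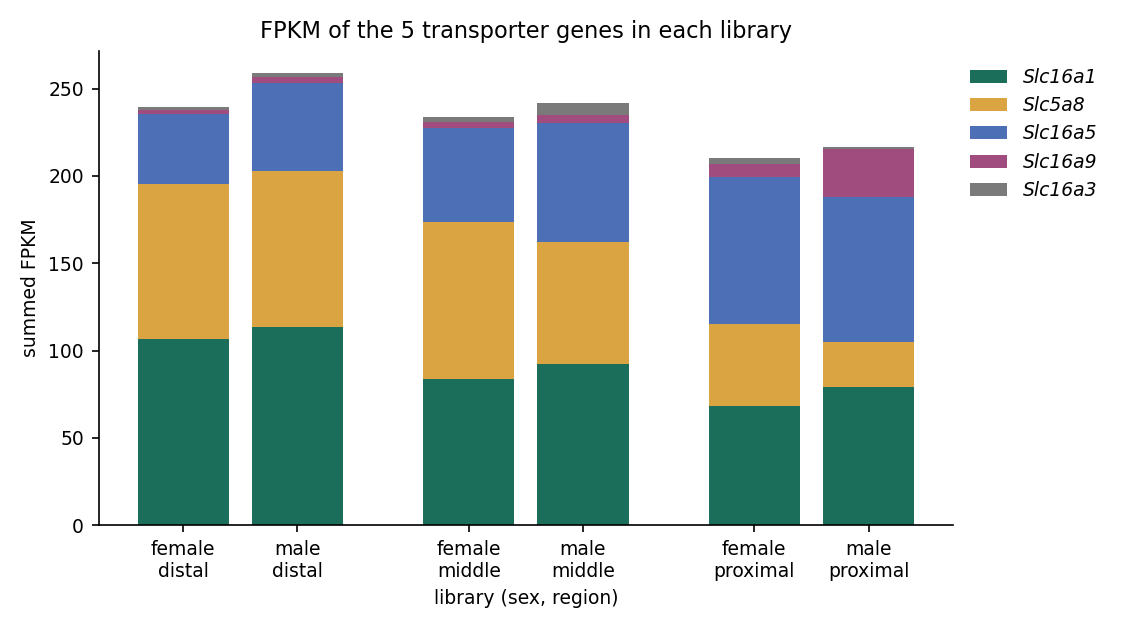
Stacked FPKM (y axis, linear, from 0) of the 5 transporter genes in each of the 6 libraries, female left of male within a region and distal, middle and proximal colon from left to right. The Slc5a8 layer was 88.8 and 89.2 FPKM in the distal libraries and 46.8 and 25.8 FPKM in the proximal libraries, and the Slc16a5 layer was wider in the proximal libraries.

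Bsg (ENSMUSG00000023175, chromosome 10, 79704491 to 79711969, plus strand) encodes basigin, and was the most abundant of the 8 genes per length in every library. It had 487 and 474 FPKM in the female and male distal libraries, 508 and 555 FPKM in the female and male middle libraries, and 600.3 and 725 FPKM in the female and male proximal libraries. Regions did not overlap, and the order in both sexes was lowest in distal and highest in proximal colon. Bsg averaged 480.3 ± 9.37 FPKM in distal and 663 ± 88.3 FPKM in proximal colon (SD, n = 2 each), a log2 difference of -0.46 (with SE 0.14 and limma adjusted p = 0.092) that did not pass the threshold. It passed in none of the 13 alternatives, where the adjusted p ranged from 0.052 to 0.61. The level of Bsg relative to Slc16a1, the carrier it escorts, was 4.56 and 4.18 in the female and male distal libraries, 6.07 and 6.02 in the female and male middle libraries, and 8.79 and 9.17 in the female and male proximal libraries.

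Ffar2 (ENSMUSG00000051314, chromosome 7, 30818348 to 30823775, minus strand) encodes a receptor for acetate and propionate that signals through Gi and Gq proteins. It had 0.193 and 1.16 FPKM in the female and male distal libraries, 5.04 and 7.81 FPKM in the female and male middle libraries, and 4.16 and 3.20 FPKM in the female and male proximal libraries. The middle libraries were the highest and the distal libraries the lowest, with no overlap between regions. Ffar2 fell in the distal colon to 0.674 ± 0.681 FPKM, against 3.68 ± 0.680 FPKM in the proximal colon (SD, n = 2 each), with a log2 difference of -1.54 (with SE 0.29 and limma adjusted p = 0.026). With a pseudocount of 0.1 the log2 difference was -2.63 and the call was kept. It was not made without a filter on low values (limma adjusted p = 0.070) or without the female distal (0.12), male distal (0.061), female middle (0.055) or male middle library (0.056).

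Against the middle colon, the distal colon had a still lower fitted Ffar2 level, with a log2 difference of -2.19 (SE 0.29) and a limma adjusted p of 0.066. That comparison passed without the female proximal (limma adjusted p = 0.0036) or male proximal library (0.0037). Middle against proximal colon gave 0.65 (SE 0.29, limma adjusted p = 0.34), which became 1.14 and passed without the female proximal library (limma adjusted p = 0.043). At the estimated depth the female distal value amounts to 0.696 to 4.01 fragments, depending on which of the 6 annotated transcripts is counted, and the male distal value to 3.29 to 18.9 fragments. The middle libraries held 18.1 to 104 fragments in the female and 22.5 to 130 fragments in the male by the same reckoning.

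Ffar3 (ENSMUSG00000019429, chromosome 7, 30854330 to 30856178, minus strand) encodes a receptor for propionate and butyrate that signals through Gi proteins, and lies 30554 bases from Ffar2. It had 0.0707 and 0.0893 FPKM in the female and male distal libraries, 0.427 and 0.265 FPKM in the female and male middle libraries, and 0.314 and 0.526 FPKM in the female and male proximal libraries. Both distal libraries lay below all others, and middle and proximal values overlapped. On its longest transcript of 1625 bases these levels amount to 0.998 and 0.991 fragments in the female and male distal libraries, 5.97 and 2.98 in the middle libraries, and 3.97 and 6.01 in the proximal libraries. The proximal mean was 5.25 times the distal mean. In a fit without the filter on low values, distal against proximal colon gave an unadjusted limma p of 0.023 and a log2 difference of -0.39 (with SE 0.11 and limma adjusted p = 0.14).

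Markers of enteroendocrine cells, where both receptors are best known, moved in both directions along the colon, mostly to lower distal levels. Their 13 genes summed to 179 to 230 FPKM in distal, 232 to 409 FPKM in middle and 211 to 333 FPKM in proximal libraries. Most of the sum in distal and middle libraries was the hormone genes Pyy and Insl5. They had 115 and 63.4 FPKM in the female distal and 78.3 and 56.6 FPKM in the male distal library. The sum therefore does not show how the other markers moved. Of 9 tested markers 2 rose and 5 fell in distal against proximal colon, where 6.47% of all genes tested rose and 7.64% fell, with a median log2 difference of -1.90, against 0.01 over all genes tested. Gcg, the proglucagon gene of L cells, had 13.8 and 19.7 FPKM in the female and male distal libraries, 54.6 and 58.3 FPKM in the middle libraries, and 60.2 and 69.1 FPKM in the proximal libraries, and fell by 1.90 (log2, with SE 0.13 and limma adjusted p = 0.0023). The L cell hormone genes Pyy and Insl5 rose by 1.20 and 3.0 on the log2 scale (limma adjusted p = 0.0098 and 0.010), and the Pyy call was not made with sex left out (0.14) or without the male distal library (0.077). Gcg, Pyy and Insl5 were named after their values were seen. Neutrophil markers, another known site of FFAR2, summed to 0.0823 to 0.142 FPKM in distal, 0.303 to 0.860 FPKM in middle and 0 to 0.315 FPKM in proximal libraries, and S100a9 was listed at 0 in every library. Adipocyte markers summed to at most 0.330 FPKM in any library, with Adipoq listed at 0 throughout. The 6 macrophage and dendritic cell markers summed to 40.6 to 41.3 FPKM in distal, 26.5 to 39.6 FPKM in middle and 14.5 to 22.2 FPKM in proximal libraries. Most of that sum was 1 gene, Cd14, with 37.8 and 37.9 FPKM in the female and male distal libraries, 33.9 and 23.3 FPKM in the middle libraries, and 20.7 and 12.3 FPKM in the proximal libraries. Of the other listed markers, Adgre1, Csf1r and Itgax were at most 0.0998, 0.205 and 0.556 FPKM in any library. Cd68 had 0.733 to 2.27 FPKM over the 6 libraries, and Lyz2 0.146 to 3.79 FPKM, highest in the female middle library. The part of enteroendocrine cells or leukocytes in the level of Ffar2 was not tested.

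**Figure D3:**
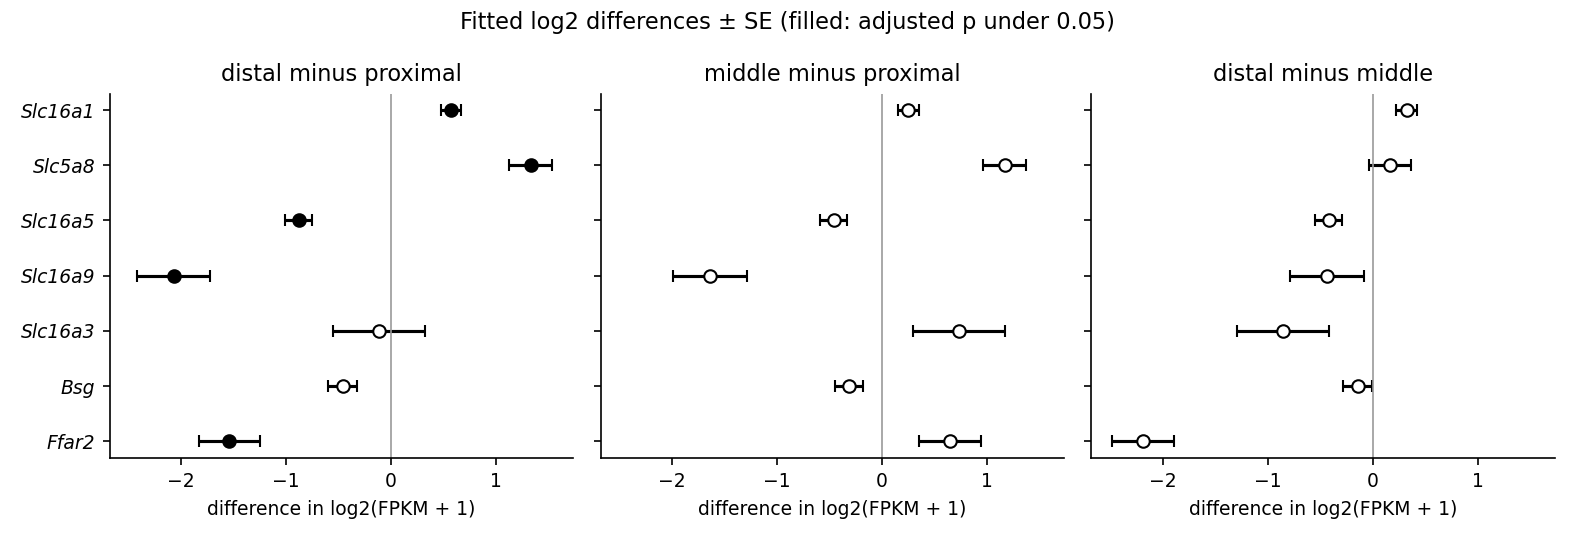
Fitted differences in log2(FPKM + 1) with their SE (x axis) for the 7 tested genes (y axis) in the 3 comparisons of regions. Filled points have a limma adjusted p under 0.05, which 5 genes had in distal minus proximal and 0 in the other comparisons; Ffar2 lay to the left in distal minus middle (-2.19) and to the right in middle minus proximal (0.65).

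Between middle and proximal colon limma called 0 of the 7 genes at the adjusted threshold, where 2.45% of all genes tested were called. At an unadjusted p under 0.05 it called 4, Slc5a8, Slc16a9, Slc16a5 and Slc16a1, against 18.3% of all genes tested. Between distal and middle colon it called 0 of 7, where 0.499% of all genes tested were called, and 3 at an unadjusted p under 0.05, Ffar2, Slc16a1 and Slc16a5, against 12.7%. Leaving out single libraries gave 0 to 3 calls for middle against proximal colon and 0 to 1 for distal against middle colon. Slc16a1 was ordered distal, middle, proximal from high to low in both sexes, and Slc16a5, Slc16a9 and Bsg from low to high, so 4 genes were ordered along the colon. Among all genes tested 22.6% were ordered in one or the other direction in both sexes. Distal and proximal values did not overlap for 7 of the 8 genes, against 60.3% of all genes tested. Middle and proximal values did not overlap for 6 of the 8 genes (43.8% of all genes tested), nor distal and middle values for 6 (39.7%).

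Between female and male libraries limma called 0 of the 7 genes at the adjusted threshold, where 0.0423% of all genes tested were called, and 1 at an unadjusted p under 0.05, against 10.6%. That gene was Slc16a9, with 2.04, 3.40 and 7.35 FPKM in the female and 3.44, 4.6 and 27.5 FPKM in the male distal, middle and proximal libraries and a log2 difference of -0.89 (with SE 0.29 and limma adjusted p = 0.44). Slc5a8 was higher in female libraries of the middle and proximal colon, with a log2 difference of 0.39 (with SE 0.17 and limma adjusted p = 0.48).

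Other members of the carrier family were at low levels. Of the 11 listed, 7 were tested, of which 1 rose and 2 fell in distal against proximal colon (6.47% and 7.64% of all genes tested), with a median log2 difference of -0.34 against 0.01 over all genes tested. Slc16a12, which in humans encodes a creatine carrier, had 2.52 and 1.94 FPKM in the female and male distal libraries and 0.0915 and 0.0340 FPKM in the proximal libraries, and rose by 1.60 (log2, with SE 0.26 and limma adjusted p = 0.017). Slc16a7, which encodes the carrier MCT2, had 0.182 and 0.172 FPKM in the female and male distal libraries and 2.37 and 2.98 FPKM in the proximal libraries, and fell by 1.64 (SE 0.23, limma adjusted p = 0.012). Slc16a12 and Slc16a7 reached the filter on low values only with the libraries of the region where they were high, so whether they were tested depended on that difference. Slc16a13 averaged 4.77 FPKM over the libraries, with a log2 difference of -0.14 (limma adjusted p = 0.63). Slc5a12, the other sodium-coupled monocarboxylate carrier, was listed at 0.0205 FPKM in the female distal library and at 0 in the other 5.

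Of the other chaperones, Emb, which encodes embigin, the partner of MCT2, had 0.458 and 0.158 FPKM in the female and male distal libraries and 1.62 and 1.86 FPKM in the proximal libraries. It fell by 1.07 (log2, with SE 0.23 and limma adjusted p = 0.038), although not past the threshold with quantile normalization (0.088) or with a pseudocount of 0.1, where the log2 difference was -2.27 (0.072). Emb reached 1 FPKM in the 2 proximal libraries alone and so was tested only through the region where it was high. Nptn, which encodes the related protein neuroplastin, had 63.6 and 63.3 FPKM in the female and male distal libraries and 61.4 and 64.8 FPKM in the proximal libraries, with a log2 difference of 0.01 (with SE 0.10 and limma adjusted p = 0.97).

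Among 10 other metabolite receptors 3 were tested, and of these 0 rose and 1 fell in distal against proximal colon, against 6.47% and 7.64% of all genes tested (median log2 difference 0.01, as over all genes tested). Ffar4, which encodes a receptor for long-chain fatty acids, had 6.93 and 8.96 FPKM in the female and male distal libraries and 14.0 and 15.7 FPKM in the proximal libraries, and fell by 0.83 (log2, with SE 0.11 and limma adjusted p = 0.0100). Gpr35 and Olfr78, a mouse olfactory receptor known to respond to acetate and propionate, gave log2 differences of 0.01 and 0.32 (limma adjusted p = 0.95 and 0.35). Hcar2, which encodes the butyrate and niacin receptor, had 0.404 and 0.146 FPKM in the female and male distal libraries, 0.290 and 0.216 FPKM in the middle libraries, and 0.256 and 0.143 FPKM in the proximal libraries, and was too low to be tested. Per length, Ffar2 was thus above both Ffar3 and Hcar2 in the middle and proximal colon.

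The proteins that carry the receptors' signal are G-protein subunits, arrestins and a phospholipase. Of 8 of their genes tested, limma called 0 in distal against proximal colon and 4 at an unadjusted p under 0.05, where 14.1% and 29.2% of all genes tested were called (median log2 difference -0.22, against 0.01 over all genes tested). Gna11 had 139 and 129 FPKM in the female and male distal libraries and 174 and 224 FPKM in the proximal libraries, with a log2 difference of -0.56 (with SE 0.14 and limma adjusted p = 0.057). Plcb3 had 204 and 171 FPKM in the female and male distal libraries and 132 and 146 FPKM in the proximal libraries, with a log2 difference of 0.42 (with SE 0.13 and limma adjusted p = 0.092). The inhibitory subunit genes Gnai2 and Gnai3 had 74.5 to 91.4 FPKM and 40.5 to 59.1 FPKM over the 6 libraries.

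Enzymes that activate and oxidize the acids taken up changed in both directions. Of 21 tested genes, 3 rose and 4 fell in distal against proximal colon (6.47% and 7.64% of all genes tested), with a median log2 difference of -0.31 against 0.01 over all genes tested. Acsm3, a mitochondrial acyl-CoA synthetase known for butyrate, had 197 and 160 FPKM in the female and male distal libraries, 174 and 96.8 FPKM in the middle libraries, and 74.0 and 41.8 FPKM in the proximal libraries, and rose by 1.65 (log2, with SE 0.16 and limma adjusted p = 0.0046). Acss2, which activates acetate in the cytosol, rose by 1.04 (SE 0.12, limma adjusted p = 0.0066). The carrier genes Slc16a1 and Slc5a8 and the activating enzyme genes Acsm3 and Acss2 were thus all higher in the distal than in the proximal colon.

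**Figure D4:**
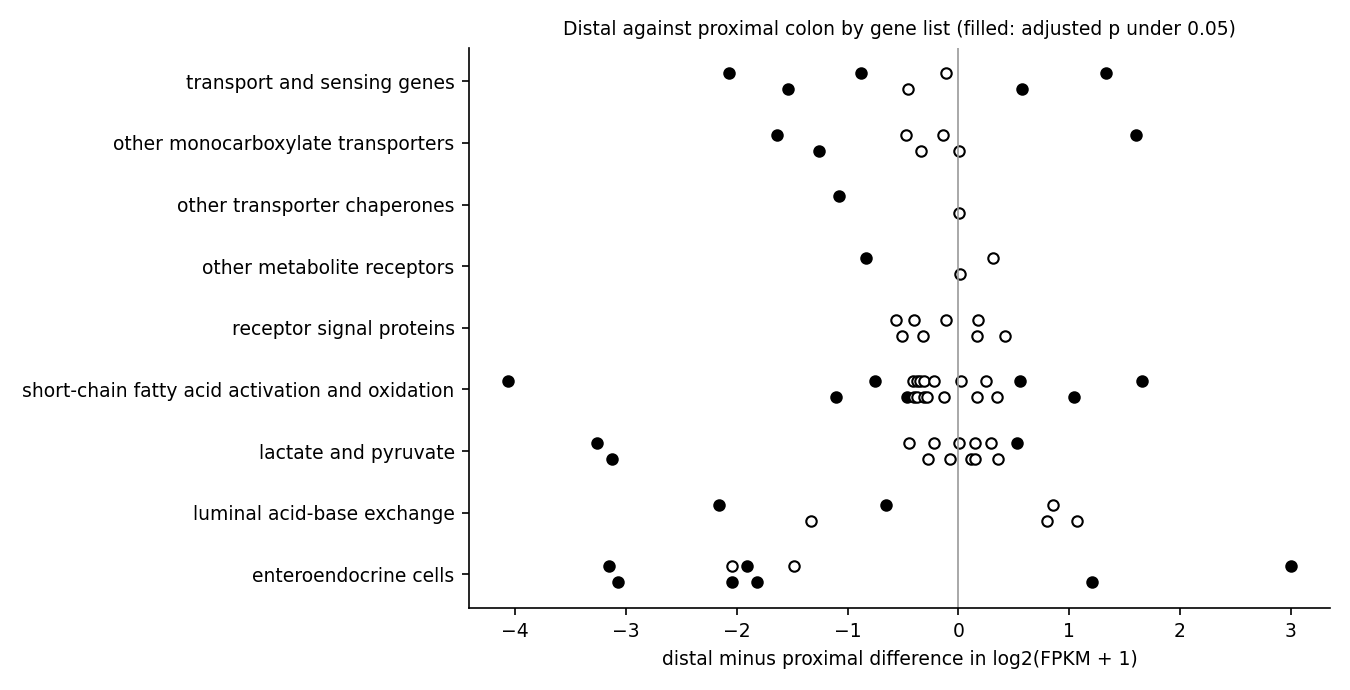
Distal minus proximal differences in log2(FPKM + 1) (x axis) of the tested genes of each list (y axis), 1 point a gene, filled where the limma adjusted p was under 0.05. The transport and sensing genes ranged from -2.07 to 1.33, and Acsm3 stood at 1.65 in the acid activation and oxidation list.

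Lactate and pyruvate are also carried by MCT1 and SMCT1, the products of Slc16a1 and Slc5a8. Of 13 tested genes of their metabolism 1 rose and 2 fell in distal against proximal colon, against 6.47% and 7.64% of all genes tested (median log2 difference 0.01, as over all genes tested). Pdk4, a kinase that restrains pyruvate oxidation, fell by 3.26 (log2, limma adjusted p = 0.00092). Ldhb, a lactate dehydrogenase subunit, fell by 3.13 (log2, limma adjusted p = 0.0023), and Pdk1, a kinase of the same family, rose by 0.53 (0.028). Ldha, the main lactate dehydrogenase subunit here at 727 to 891 FPKM, gave a log2 difference of 0.15 (limma adjusted p = 0.56). Of 6 tested genes of luminal acid and bicarbonate exchange, which supply or remove the protons that MCT1 uses, 0 rose and 2 fell, beside the same shares of all genes tested. Car1, a carbonic anhydrase gene, fell by 2.16 and Slc9a2, a sodium-proton exchanger gene, by 0.65 (limma adjusted p = 0.039 and 0.034), while Car2 and Car4 gave log2 differences of 0.86 and 1.07 (0.070 and 0.064). Without the filter on low values neither Car1 (limma adjusted p = 0.13) nor Slc9a2 (0.065) passed, and Car1 did not pass with sex left out (0.061) nor Slc9a2 without a variance trend (0.055).

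Several of these surrounding genes lost their call between distal and proximal colon with a library left out. Slc16a12, Emb, Ffar4, Pdk1 and Slc9a2 did not pass when either distal library was left out, and Slc16a7, Acss2, Car1 and Pyy not without the male one. Without the male distal library, Car1 fitted at -1.35 on the log2 scale. Emb, Pdk1 and Car1 also did not pass without the female middle, male middle or male proximal library, nor Pdk1 and Slc9a2 without the female proximal library.

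The genes whose log2(FPKM + 1) followed each transport gene most closely over the 6 libraries were searched among 8655 others with a mean of at least 5 FPKM, and are given as a description only, since the 6 points share their regions and sexes. For Slc16a1 they were Sgta, Kank1 and Spata13 (Pearson r 0.991, 0.985 and 0.984). For Slc5a8 they were Max, Pam and B3gnt7 (r 0.999, 0.998 and 0.997). Max had 131 and 132 FPKM in the female and male distal libraries, 131 and 115 FPKM in the middle libraries, and 92.9 and 63.8 FPKM in the proximal libraries. For Slc16a5 they were Ppfia3, Ier5 and Ppa2 (r 0.995, 0.993 and 0.991), for Slc16a9 Rhbdf1, Panx1 and Zfp932 (r 0.997, 0.996 and 0.996), and for Bsg Gpi1, H2-Q2 and Ranbp9 (r 0.995, 0.995 and 0.995).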

How the data were processed

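RNA libraries of colon epithelial cells were made with a stranded kit for polyadenylated RNA, per the labels' protocols. The values are FPKM per gene symbol as deposited by the authors, 1 library per file. The submitters' processing notes name Cuffdiff 2.2.1, TopHat2 2.1.1, SAMtools 0.1.18, Bowtie2 2.2.8 and the build mm10. Neither their settings, the annotation nor the treatment of strand is given in the sources used here. Regions and sexes were taken from the labels.

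FPKM is not a count, so limma 3.58.1 in R 4.3.3 was fitted to log2(FPKM + 1), with region and sex as terms, a variance trend and Benjamini-Hochberg adjustment over the 11815 kept entries (2 residual degrees of freedom). The fit was tested on simulated data, in 10 draws with 200 genes raised in the distal libraries. It called 85.0% of the genes raised by a log2 of 1 and 99.7% of those raised by 2. Of its calls, 7.23% were of unchanged genes. Changes smaller than a log2 of 1 were not simulated. The simulated noise was independent and normal, with the spread that the fit itself had estimated for each gene. No effect of sex and none shared within a library was simulated. These shares therefore describe data that meet the model and may not carry over to these libraries. Region by sex leaves no residual degrees of freedom and was not fitted. Depth was estimated from single-transcript genes under 0.2 FPKM, longer than 1500 bases, with an assumed fragment length of 200 bases. At that depth 74.7% to 81.5% of their values lay within 0.1 of a whole fragment (20% for evenly spread values). No interval was computed for the depth. The ranges of fragments given for Ffar2 run from its shortest to its longest annotated transcript and do not hold counting error. Positions are from GENCODE M21 (mm10) and start windows from RefSeq. Figures were drawn with matplotlib 3.10.9.

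The 8 genes and all lists were chosen with earlier results of these data known. Named list genes were those past the threshold by size, then by mean FPKM, up to 4 a list, of which some are not reported here; the nearest 3 genes by Pearson r were named for each of the 8 genes with a mean of at least 5 FPKM. The alternatives tried were median-ratio scaling, quantile normalization, a pseudocount of 0.1, a filter of 5 FPKM or none, a fit with no variance trend, a fit without the other factor, and each library left out in turn. In the last case a region keeps 1 library, which is taken to vary as the other libraries do. The median-ratio factors were 1.001 to 1.0081, so median-ratio scaling could change little.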

Additional observations from a re-analysis of the deposited data

Results flagged for a closer look

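In 4 of 24 comparisons of regions for the 8 genes, the female and male libraries moved in opposite directions. With 1 library per sex and region, these differences were not tested. Slc16a3 in distal against proximal colon changed by -0.58 in female and 0.35 in male libraries on the log2(FPKM + 1) scale, a difference between the sexes of -0.93. In middle against proximal colon Slc16a3 changed by -0.23 in female and 1.70 in male libraries, a difference of -1.93. Slc5a8 in distal against middle colon changed by -0.02 in female and 0.34 in male libraries, a difference of -0.36. Ffar3 in middle against proximal colon changed by 0.12 in female and -0.27 in male libraries, a difference of 0.39, at levels that amount to 2.98 to 6.01 fragments a library.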

How the results depend on the processing

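Between distal and proximal colon 5 genes were called, and 3 were called with no filter on low values and 4 with no replicate block (sex left out of the model). Leaving out 1 library gave 0 to 5 calls, the lowest without the male distal library (0) and the next without the female distal library (1). Between middle and proximal colon 0 genes were called, against 1 with a filter of 5 FPKM and 0 to 3 with 1 library left out. Between distal and middle colon the count was 0, and 0 to 1 with 1 library left out. With no replicate block 0 of the 7 genes were called in these 2 comparisons and between the sexes. No alternative called any of the 7 genes between the sexes. Over all genes tested, 1668 were called between distal and proximal colon, against 770 when the female distal library and 340 when the male one was left out. Middle against proximal colon gave 289 calls, against 4 with no filter, 24 with no replicate block, 187 with no variance trend and 0 to 806 with 1 library left out. Between distal and middle colon 59 were called, against 2 with no filter, 17 with no replicate block, 29 with no variance trend and 0 to 406 with 1 library left out. Between the sexes 5 were called, and 2 to 25 with 1 library left out.

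Of 718 alternative values of single genes, 641 kept their direction and side of the threshold, 53 no longer passed, 14 newly passed and 10 changed sign. The cause of these changes was not tested. The sign changes were of values that did not pass in either setting. They were Slc16a3 in distal against proximal colon without the female proximal library (0.60) and between the sexes without the female middle or male middle library (0.39 each), Slc5a8 in distal against middle colon without the male distal library (-0.14), and, in distal against proximal colon, Slc16a13 without the male proximal library (0.083), Nptn with median-ratio scaling (-0.0011) and without the female distal library (-0.060), Gpr35 without the male distal library (-0.019), Gnai2 without the female proximal library (0.012) and Ldha with quantile normalization (-0.026). Ffar3 in all libraries and Ffar2 in the distal libraries rest on few fragments.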

Other observations

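The remaining receptor genes for fatty acids and their metabolites were listed at or near 0. Ffar1, which lies 1211 bases from Ffar3 and encodes a receptor for long-chain fatty acids, was listed at 0 in 5 libraries and at 0.712 FPKM in the male proximal library. Olfr558 was listed at 0 in both distal and both middle libraries, and had 0.205 and 0.229 FPKM in the female and male proximal libraries. Acsm1 and Acsm5, acyl-CoA synthetase genes of the same family as Acsm3, were listed at 0 in all 6 libraries.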
